A study of Homo sapiens with 13 samples.

Results

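The 6 genes that encode the conventional actins were followed in 13 RNA-seq libraries of the small cell lung cancer (SCLC) lines H82 and H146, out of 56831 genes listed. The genes were *ACTA1*, *ACTC1*, *ACTA2*, *ACTG2*, *ACTB* and *ACTG1*, found by symbol, and all 6 were present in the tables of both lines. *ACTA1* was chosen because its fall was the largest in treated H82 cells. The other members were included as its gene family and not for their values. H82 is an established SCLC line of the neuroendocrine subtype marked by NEUROD1, and H146 is an established line of another neuroendocrine subtype. Both are labelled wild type. The libraries were 3 from untreated H82, 3 from treated H82, 3 from untreated H146 and 4 from treated H146. Treated cells received FHD-286, an inhibitor of the ATPases SMARCA2 and SMARCA4 of the SWI/SNF chromatin remodelers, at 100 nM for 14 days. Untreated cells carried no treatment in the labels, which name no vehicle. Each line is a single model, and nothing in the labels says that its libraries came from separate cultures, so *p* values measure the spread between libraries only.

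Actin is the monomer of the microfilaments that shape and move every cell. Mammals make 6 conventional isoforms from 6 genes: *ACTA1* is the main isoform of adult skeletal muscle, *ACTC1* that of the heart and of developing muscle, *ACTA2* that of vascular smooth muscle and *ACTG2* that of visceral smooth muscle. *ACTB* and *ACTG1* encode the cytoplasmic isoforms of nonmuscle cells. The muscle isoform genes and several cytoskeletal genes carry CArG boxes, which are sites for serum response factor (SRF), and the myocardin family coactivators of SRF respond to the pool of free actin monomers.

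The isoform genes are nearly alike in sequence, which bears on how reads are shared among them. In their first 60 coding bases, 5' to 3', capitals mark each base unlike the aligned base of *ACTA1* (GENCODE transcripts):
ACTA1: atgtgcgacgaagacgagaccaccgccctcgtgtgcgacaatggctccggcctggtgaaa
ACTC1: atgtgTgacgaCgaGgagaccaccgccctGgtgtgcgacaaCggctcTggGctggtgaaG
ACTA2: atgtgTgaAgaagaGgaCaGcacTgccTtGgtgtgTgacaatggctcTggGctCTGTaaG
ACTG2: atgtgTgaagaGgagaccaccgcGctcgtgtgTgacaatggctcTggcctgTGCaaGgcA
ACTB: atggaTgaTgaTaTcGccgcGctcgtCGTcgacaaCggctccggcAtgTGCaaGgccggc
ACTG1: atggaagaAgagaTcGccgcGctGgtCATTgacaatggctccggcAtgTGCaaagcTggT
Over this stretch *ACTC1* differed from *ACTA1* at 8 aligned bases and *ACTA2* at 16. Over the whole coding sequence *ACTA1* was 84.6% to 85.6% identical to each of the other isoforms, and the closest pair was *ACTB* and *ACTG1*, at 91.2%. Stretches long enough to confuse a read were rare. Of all 50-base windows of the *ACTA1* transcript, 1.9% occurred in another gene, and none of its 100-base windows did. The share of 50-base windows was 0.8% for *ACTC1*, 0.0% for *ACTA2*, 0.1% for *ACTG2*, 4.2% for *ACTG1* and 10.9% for *ACTB*, whose partners included pseudogenes. The read length and the treatment of reads with several matches are not given in the sources used here.

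CArG boxes were sought just before the start site, only as exact matches to CCWWWWWWGG, where W is A or T. The upstream bases of *ACTA2*, whose level also moved, were searched but are not printed. For 3 other muscle isoform genes whose levels moved, the 250 bases upstream are shown 5' to 3' along the strand of the gene. Each exact match is in capitals (RefSeq, GRCh38.p14):
ACTA1 (chr1:229434095-229434344, minus strand): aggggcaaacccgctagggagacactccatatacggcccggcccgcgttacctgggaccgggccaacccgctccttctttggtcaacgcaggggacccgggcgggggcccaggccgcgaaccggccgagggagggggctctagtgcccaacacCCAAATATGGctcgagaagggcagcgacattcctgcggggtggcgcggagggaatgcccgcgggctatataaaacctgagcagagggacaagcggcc
ACTC1 (chr15:34795550-34795799, minus strand): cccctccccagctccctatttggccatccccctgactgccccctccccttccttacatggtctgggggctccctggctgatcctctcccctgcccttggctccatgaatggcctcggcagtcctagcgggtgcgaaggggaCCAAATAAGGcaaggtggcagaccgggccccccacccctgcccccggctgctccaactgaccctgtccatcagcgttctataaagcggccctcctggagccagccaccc
ACTG2 (chr2:73892758-73893007, plus strand): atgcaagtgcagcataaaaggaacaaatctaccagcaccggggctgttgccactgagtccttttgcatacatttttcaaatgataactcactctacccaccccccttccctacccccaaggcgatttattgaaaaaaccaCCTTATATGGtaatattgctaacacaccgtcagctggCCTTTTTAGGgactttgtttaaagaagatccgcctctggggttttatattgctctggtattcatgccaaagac
*ACTA1* held 1 exact match, which ended 88 bases before the start, *ACTC1* held 1 at 100 bases and *ACTG2* held 2, at 64 and 101 bases. *ACTG1*, which is not a muscle isoform, also held 1, at 85 bases. *ACTB* was not searched for any motif, because no upstream window of it was available. No exact match was found in the window of *ACTA2*, which held ccctatatgg and ccttgtttgg, each 1 base unlike the pattern. Such looser matches were not counted in any gene. The windows of *ACTA1* and *ACTC1* also held some, such as ccatatacgg and ccctatttgg. Of 35116 promoter windows of the same length, 1.16% held an exact match, with both strands searched. The TATAAA motif was found in the windows of *ACTA1*, *ACTC1* and *ACTG2*, and in 10.72% of all windows. A match is a description of these letters, and factor binding was not measured here.

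The tables give TPM (scaled transcript abundance), in which reads are divided by gene length and every library has the same sum, so levels of different genes can be set side by side within a library. Between 15554 and 21772 genes reached 1 TPM in a library, with fewer in treated H82 (15554 to 16633) than in untreated H82 (21227 to 21772). The mitochondrial share of TPM was 22.1% to 24.1% in untreated and 12.3% to 14.9% in treated H82. Neuroendocrine markers were present in every group, with a lowest summed level of 178 TPM. The tables hold no read totals, so no counting interval is given. Among the treated H82 libraries, 2 stood apart in different measures. Replicate 2 held *INSM1*, a neuroendocrine factor, at 296 TPM, against 32.1 and 33.9 TPM in the other treated H82 libraries, and the summed epithelial markers reached 114 TPM there. Replicate 1 held *ACTB* at 1022 TPM, against 2318 and 2157 TPM in the others, and reached 1 TPM in 16633 genes, against 15554 and 15604. Of the treated H82 libraries, its leaving out moved the counts over all genes the most, to 9955 lower and 3820 higher. The counts were 8194 and 2068 without replicate 2, and 8996 and 2588 with every library. Leaving out an untreated H82 library moved the lower count further, to 7617 to 7899, with 1882 to 1923 higher. All these counts used genes filtered on all libraries. Counts of the gene lists in H82 are given without treated replicate 1 or 2 where they moved by over 1.5 times, an alternative chosen after the data were seen.

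Many genes of both lines differed with FHD-286, and the isoforms are read against that background. In treated H82, 45.5% of 19770 genes tested were lower and 13.1% were higher at a limma adjusted *p* under 0.05, and 67.8% had no overlap between groups. In treated H146, 15.5% of 19585 genes were lower, 32.5% were higher and 52.9% did not overlap. In H82 the median change over the genes tested was -0.56 on the log2 scale, and in H146 it was 0.25. With libraries scaled by the median of ratios these medians became -0.14 and -0.02. That scaling gave 6499 lower and 4793 higher genes for H82 in place of 8996 and 2588. For H146 it gave 4917 lower and 4167 higher in place of 3033 and 6356.

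*ACTA1* (ENSG00000143632.15, chromosome 1, 229430365 to 229434104, minus strand, 7 exons, hg38 coordinates of GENCODE release 44) was abundant in untreated H82 and almost gone with FHD-286. Its levels were 515, 699 and 446 TPM in the untreated libraries and 1.76, 2.97 and 1.79 TPM in the treated ones. The 2 sets lay far apart, and no untreated library came near a treated one. The mean went from 553 ± 130 TPM, place 163 among all genes, to 2.17 ± 0.69 TPM, place 13420 (SD, n = 3 and 3). This was 255-fold lower. On the log2(TPM + 1) scale, which understates changes at low levels, the change was -7.44 with a standard error (SE) of 0.23, and such values are called log2 changes from here on. Relative to the median of all tested genes in H82, it was -6.89. *ACTA1* was chosen on this contrast, so no test is given. The gene just after it in the order of falls was *RBP3*, a retinal retinoid-binding protein, at -7.41. In bulk RNA, fewer cells of a type and less RNA per cell cannot be told apart.

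In H146 *ACTA1* was scarce with and without treatment. It was at 0.581, 0.898 and 0.526 TPM in untreated cells and at 3.31, 1.21, 2.51 and 0.803 TPM in treated cells. Most treated libraries were higher, but treated replicate 4 lay within the untreated range. The log2 change of 0.75 did not reach the threshold (limma adjusted *p* = 0.0777). Without treated replicate 4 it was 0.96, past the threshold (limma adjusted *p* = 0.0251), and over all 17 alternatives the adjusted *p* ran from 0.0251 to 0.203. *ACTA1* met the filter of 1 TPM in 3 libraries only through the treated group. Ordered by mean, untreated H82 (553 TPM) was followed by treated H82 (2.17 TPM), treated H146 (1.96 ± 1.16 TPM, SD, n = 4) and untreated H146 (0.668 ± 0.201 TPM, SD, n = 3). The ranges of treated H82 and treated H146 overlapped, as did those of treated and untreated H146. The change in H146 minus that in H82 was 8.19 on the log2 scale, also given with no test.

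**Figure D1:**
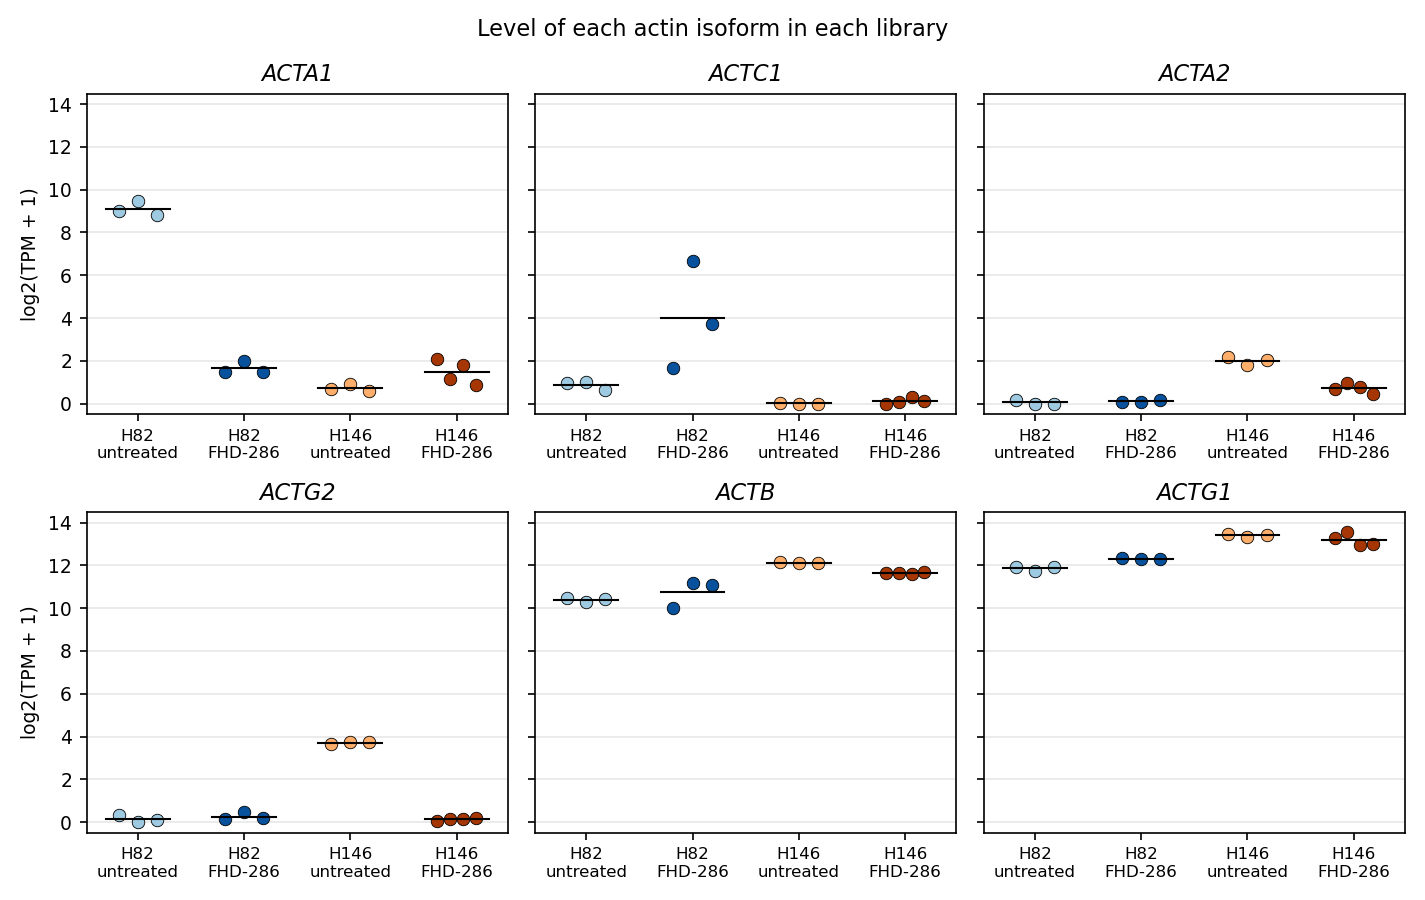
Each panel shows 1 actin isoform, with log2(TPM + 1) on the vertical axis, 1 point per library and a bar at the mean of the group. *ACTA1* is high only in the 3 untreated H82 libraries, *ACTC1* spreads widely in treated H82, *ACTA2* and *ACTG2* are seen in untreated H146, and *ACTB* and *ACTG1* are high in all 13 libraries.

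*ACTC1*, the cardiac isoform (chromosome 15, 34790107 to 34795589, minus strand), moved the other way in H82. The untreated libraries were at 0.951, 1.01 and 0.53 TPM and the treated ones at 2.21, 101 and 12.1 TPM. Every treated library was above every untreated one, but the treated libraries differed from each other far more than the untreated did, and the highest was replicate 2. *ACTC1* rose by a log2 change of 3.16 (SE 1.11, limma adjusted *p* = 0.0436). With 3 against 3 libraries, an exact permutation test cannot go below *p* = 0.1, and it gave 0.1. Without treated replicate 2 the log2 change was 1.84 and stayed past the threshold (limma adjusted *p* = 0.0383), and without treated replicate 1 it was 4.33 (limma adjusted *p* = 0.00402). The call was lost without treated replicate 3 (3.32, limma adjusted *p* = 0.0766) and without untreated replicate 1 (3.21, adjusted *p* = 0.0927), 2 (3.23, adjusted *p* = 0.111) or 3 (3.04, adjusted *p* = 0.104). It was also lost when genes were not filtered (limma adjusted *p* = 0.0851). *ACTC1* passed the filter through the treated group, where all 3 libraries reached 1 TPM, against 1 untreated library. In H146, *ACTC1* did not exceed 0.254 TPM in any library and was below the filter (two-sided exact permutation test, *p* = 0.171).

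Both smooth muscle isoforms were seen in untreated H146 and were lower with FHD-286. *ACTG2* (chromosome 2, 73892314 to 73919865, plus strand) was at 11.4, 12.2 and 12.6 TPM in untreated H146 and at 0.0288, 0.112, 0.113 and 0.131 TPM in treated H146. The untreated libraries agreed closely, and every treated library was far below them. *ACTG2* fell by 3.57 on the log2 scale (SE 0.15, limma adjusted *p* = 3.32e-06), and the ratio of means was 125-fold. The adjusted *p* stayed at or below 0.000137 over 18 alternatives. *ACTA2* (chromosome 10, 88935074 to 88991339, minus strand) was at 3.53, 2.45 and 3.05 TPM in untreated H146 and at 0.628, 0.966, 0.685 and 0.370 TPM in treated H146. These groups did not overlap either. *ACTA2* fell by 1.27 on the log2 scale (SE 0.20, limma adjusted *p* = 0.00124), with adjusted *p* from 0.000496 to 0.0118 over 17 alternatives. For both genes the two-sided exact permutation test gave *p* = 0.0286, the smallest it can give for 3 against 4 libraries. Both passed the filter only through the untreated group.

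Exons of *ACTA2* share bases with *FAS*, the gene of a death receptor, on the opposite strand, and whether the counting used strand is not given in the sources used here. Without strand, reads of the 2 genes cannot be told apart in the shared bases. *FAS* was at 8.33 to 8.53 TPM in untreated H146 and at 2.12 to 4.36 TPM in treated H146. *FAS* fell by 1.2 on the log2 scale there (limma adjusted *p* = 0.00336), so both overlapping genes were lower together. In H82 both smooth muscle isoforms were close to 0 whatever the treatment. *ACTA2* reached at most 0.129 TPM (two-sided exact permutation test, *p* = 0.6) and *ACTG2* at most 0.364 TPM (*p* = 0.5 in the same exact test), and neither passed the filter.

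The cytoplasmic isoforms dominated in every library and changed far less. *ACTB* (chromosome 7, 5526409 to 5563902, minus strand) was at 4627, 4404 and 4449 TPM in untreated H146 and at 3241, 3180, 3128 and 3322 TPM in treated H146. The groups were tight and did not overlap. *ACTB* fell by 0.48 on the log2 scale (SE 0.12, limma adjusted *p* = 0.0115), to 0.716 of its untreated mean. This call was lost without untreated replicate 1 (-0.46, limma adjusted *p* = 0.0573), with no filter on low values (adjusted *p* = 0.0768), with the replicate number as a block (-0.50, adjusted *p* = 0.0828) and under quantile normalization (-0.39, adjusted *p* = 0.121). In H82, *ACTB* was at 1408, 1263 and 1393 TPM without treatment and at 1022, 2318 and 2157 TPM with it. Treated replicate 1 lay below the untreated range and the other treated libraries above it. The log2 change of 0.35 did not reach the threshold (limma adjusted *p* = 0.412). Without treated replicate 1 it was 0.72 and past the threshold (limma adjusted *p* = 0.000948), while under quantile normalization it turned to -0.11 (adjusted *p* = 0.81).

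*ACTG1* (chromosome 17, 81509413 to 81523847, minus strand) was the most abundant isoform in all 13 libraries. In untreated H146 it ranked 2 among all genes by mean TPM. Its levels were 3914, 3416 and 3872 TPM in untreated H82 and 5207, 5042 and 4998 TPM in treated H82. Every treated library was above every untreated one, yet the log2 change of 0.45 did not reach the threshold (limma adjusted *p* = 0.179). The result depended on the setting: it was 0.94 when libraries were scaled by the median of ratios (limma adjusted *p* = 0.0256), -0.03 under quantile normalization (adjusted *p* = 0.92) and 0.43 without treated replicate 1 (adjusted *p* = 0.0138). With eBayes without trend the same 0.45 was past the threshold (limma adjusted *p* = 0.0391). In H146, *ACTG1* was at 11506, 10295 and 11019 TPM in untreated cells and at 9927, 12196, 7922 and 8240 TPM in treated cells. The treated libraries spread around the untreated range, and the log2 change of -0.21 did not reach the threshold (limma adjusted *p* = 0.385).

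Relative to the median of all genes, *ACTB* and *ACTG1* were at 0.91 and 1.01 in H82, but under quantile normalization, where that median was -0.05, their own log2 changes were -0.11 and -0.03. In H146 they were at -0.73 and -0.46 on that relative scale. *ACTG2* was at -3.82 and *ACTA2* at -1.52 there.

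**Figure D2:**
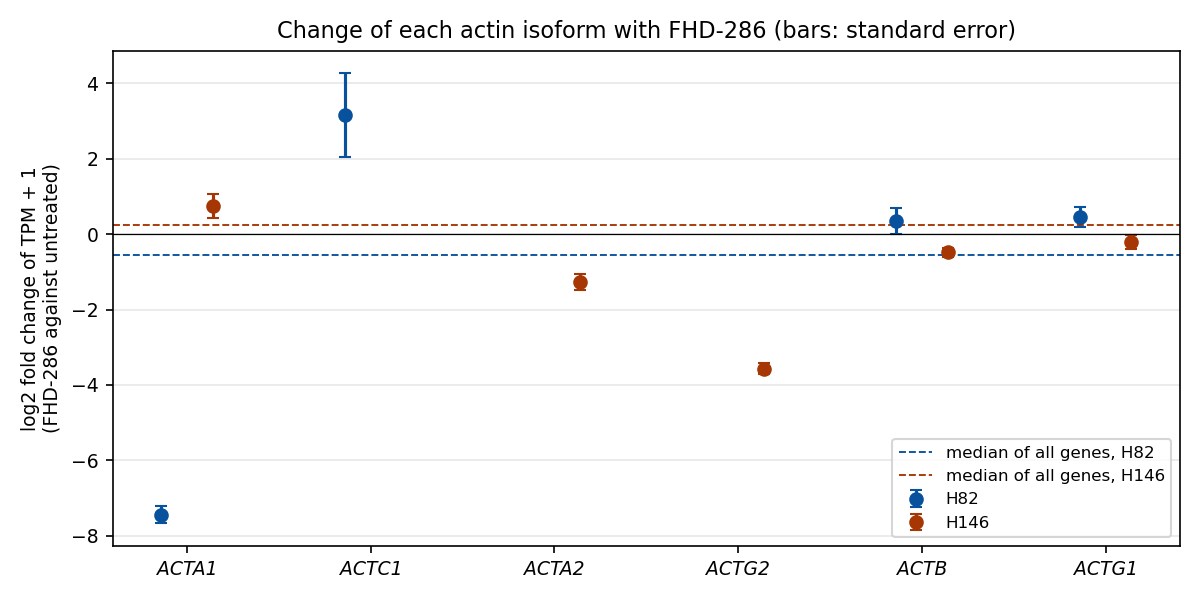
The log2 fold change of TPM + 1 with FHD-286 is shown for each isoform that passed the filter, with its standard error, for H82 in blue and H146 in brown. Dashed lines mark the median of all genes tested in each line (-0.56 and 0.25). *ACTA1* in H82 lies at -7.44, *ACTG2* in H146 at -3.57, and the cytoplasmic isoforms lie between -0.48 and 0.45.

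The log2 changes of the isoforms were also compared between the 2 lines. In 1 fit over all 13 libraries, where 59.3% of 24374 genes differed between the lines in either direction, the change in H146 minus that in H82 was -3.69 for *ACTG2* (limma adjusted *p* = 1.82e-07) and -1.31 for *ACTA2* (limma adjusted *p* = 0.000371). Both isoforms were already near 0 in untreated H82, so these differences also carry which line held the RNA. For *ACTC1*, which was at most 0.254 TPM in any H146 library, the difference was -3.04 (limma adjusted *p* = 0.0379). It was -1.71 without treated H82 replicate 2 (adjusted *p* = 0.0213) and -4.21 without treated H82 replicate 1 (adjusted *p* = 0.000833), and leaving out any single H146 library or untreated H82 library ended the call (limma adjusted *p* of 0.0507 to 0.0727). The differences for *ACTB* (-0.83, limma adjusted *p* = 0.059) and *ACTG1* (-0.66, limma adjusted *p* = 0.0679) did not reach the threshold.

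The make-up of the actin pool at the RNA level changed mostly in H82. Summed over the 6 genes, actin took 5379 to 5838 TPM in untreated H82, 6233 to 7464 TPM in treated H82, 14714 to 16148 TPM in untreated H146 and 11053 to 15378 TPM in treated H146. In untreated H82, *ACTA1* made up 7.81% to 13% of this sum (mean 9.88% ± 2.75, SD, n = 3). With treatment it made up 0.025% to 0.0398%. The 4 muscle isoforms together made up 0.0659% to 1.40% of the sum in treated H82, where the highest value came from the *ACTC1* of replicate 2. In H146 they never reached more than 0.106%, and they stood at 0.012% to 0.0322% with treatment. The ratio of *ACTG1* to *ACTB* was 2.70 to 2.78 in untreated H82 and 2.34 to 2.49 in untreated H146. In treated H82 it was 5.09 in replicate 1, which lay far above the 2.17 and 2.32 of the other libraries. In treated H146 it was 2.48 to 3.84, with the highest value in replicate 2.

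**Figure D3:**
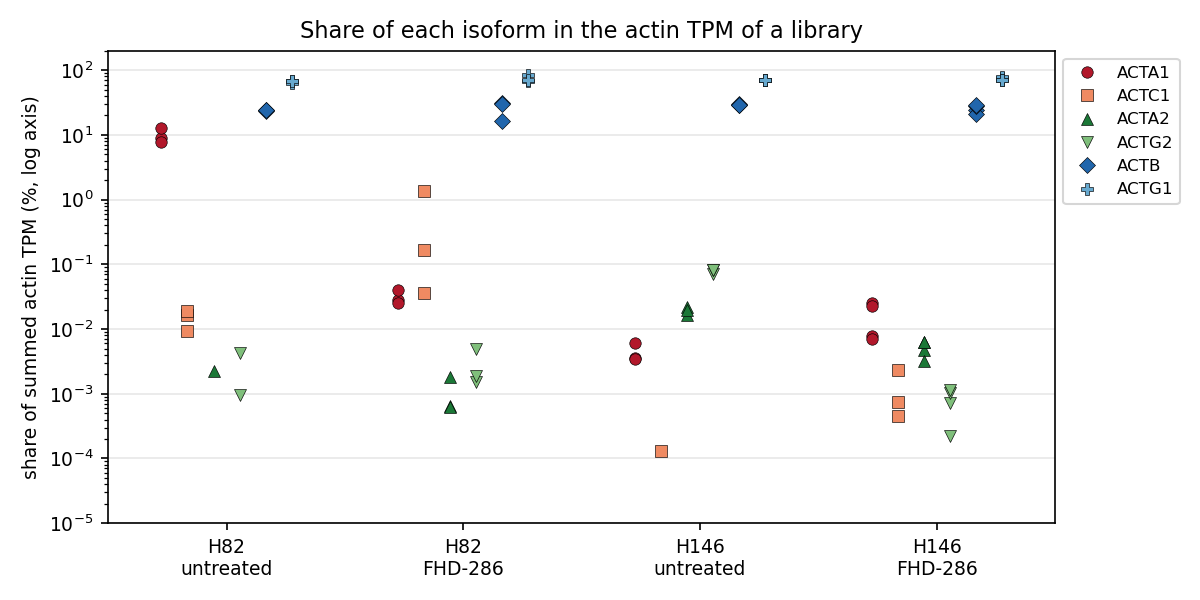
The share of each isoform in the summed TPM of the 6 actin genes is shown in percent on a log axis, 1 symbol per library. Values of 0 are not drawn. *ACTA1* holds 7.81% to 13% in untreated H82 and at most 0.0398% elsewhere, while *ACTG1* and *ACTB* hold most of the sum in every library.

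Genes that work with *ACTA1* in the sarcomere, the contractile unit of striated muscle, were also present in untreated H82. Of 54 listed striated muscle genes, 35 were tested in H82, where 25 fell and 2 rose (45.5% and 13.1% over all genes), and the median of the 35 was -1.65 where that of all genes was -0.56. The counts were 25 and 1 without treated replicate 1, and 26 and 1 without treated replicate 2. Many of these genes passed the filter only through the untreated group, where they were high. With no filter on low values, 29 of 53 fell and 0 rose, with a median of -0.87 against -0.26. Over all 37980 genes of that setting, 9855 fell and 2449 rose. The largest fall was that of *TNNC2*, the calcium-binding troponin of fast skeletal muscle. It was at 76.6, 101 and 60.3 TPM in untreated H82 and at 4.09, 1.43 and 1.60 TPM in treated H82, with a log2 change of -4.63 (limma adjusted *p* = 0.000146). The largest rise was that of *MYH7*, the beta myosin heavy chain of heart and slow muscle. It went from 13.6, 11.7 and 11.6 TPM to 24.1, 185 and 33.8 TPM (log2 change 2.04, limma adjusted *p* = 0.038), and the value without treated replicate 2 was 1.16 (limma adjusted *p* = 0.00658). Of 8 skeletal muscle markers, 7 had a mean of at least 1 TPM in untreated H82. Their sum was 125 to 186 TPM there and 11.7 to 15.2 TPM in treated H82. The part of other cell types in the fall of *ACTA1* was not tested.

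Sorted by isoform type, a grouping made after the values were seen and so given with no test, nearly all fast skeletal genes were lower in treated H82. Of 9 fast skeletal genes, 8 were higher in every untreated H82 library than in any treated one (67.8% of all genes tested did not overlap in either direction), and their summed level was 99.6 to 171 TPM against 3.26 to 6.30 TPM. Among them, *MYL1*, a fast myosin light chain, was at 12.7, 20.5 and 11.9 TPM and was listed at 0 in all 3 treated libraries. *TNNI2*, the inhibitory troponin of fast muscle, went from 12.4, 15.6 and 7.38 TPM to 0.11, 0.0 and 0.0 TPM. *MYH3*, the embryonic myosin heavy chain, went from 22.2, 22.7 and 20.6 TPM to 5.31, 1.62 and 4.79 TPM. *MYOD1*, the transcription factor that specifies skeletal muscle, was at 7.88, 7.78 and 7.5 TPM in untreated H82 and at 0.531, 0.693 and 0.991 TPM with treatment. Its partner *MYOG* did not exceed 1.0 TPM in any library. The falls were not confined to fast or developmental isoforms. Chosen after their values were seen, *CASQ1*, calsequestrin, which stores calcium, had a log2 change of -3.51 (limma adjusted *p* = 9.6e-05). *CKM*, muscle creatine kinase, fell by 2.42 (limma adjusted *p* = 0.00271). *MYBPC1*, the slow skeletal myosin-binding protein, fell by 2.05 (limma adjusted *p* = 0.000542). *CASQ1* and *MYBPC1* passed the filter only through the untreated group, with at most 0.574 and 0.129 TPM in treated H82.

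The cardiac genes showed no single direction. Of 10 cardiac genes, 2 were higher in every untreated H82 library and 3 in every treated one, fewer without overlap than the 67.8% of all genes tested, and their summed level was 198 to 253 TPM without and 110 to 595 TPM with treatment. *MYH6*, the alpha myosin heavy chain of the heart, was high in both groups, at 193, 150 and 184 TPM and at 67.3, 304 and 134 TPM. The highest treated value again lay in replicate 2. *MYL3*, a ventricular light chain, went from 0.282, 0.0 and 0.0 TPM to 0.878, 15.4 and 3.19 TPM, in the same order of libraries as *ACTC1*. *MYL4*, an atrial and embryonic light chain, went the other way, from 20.9, 15.7 and 19.5 TPM to 0.146, 0.679 and 0.702 TPM.

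**Figure D4:**
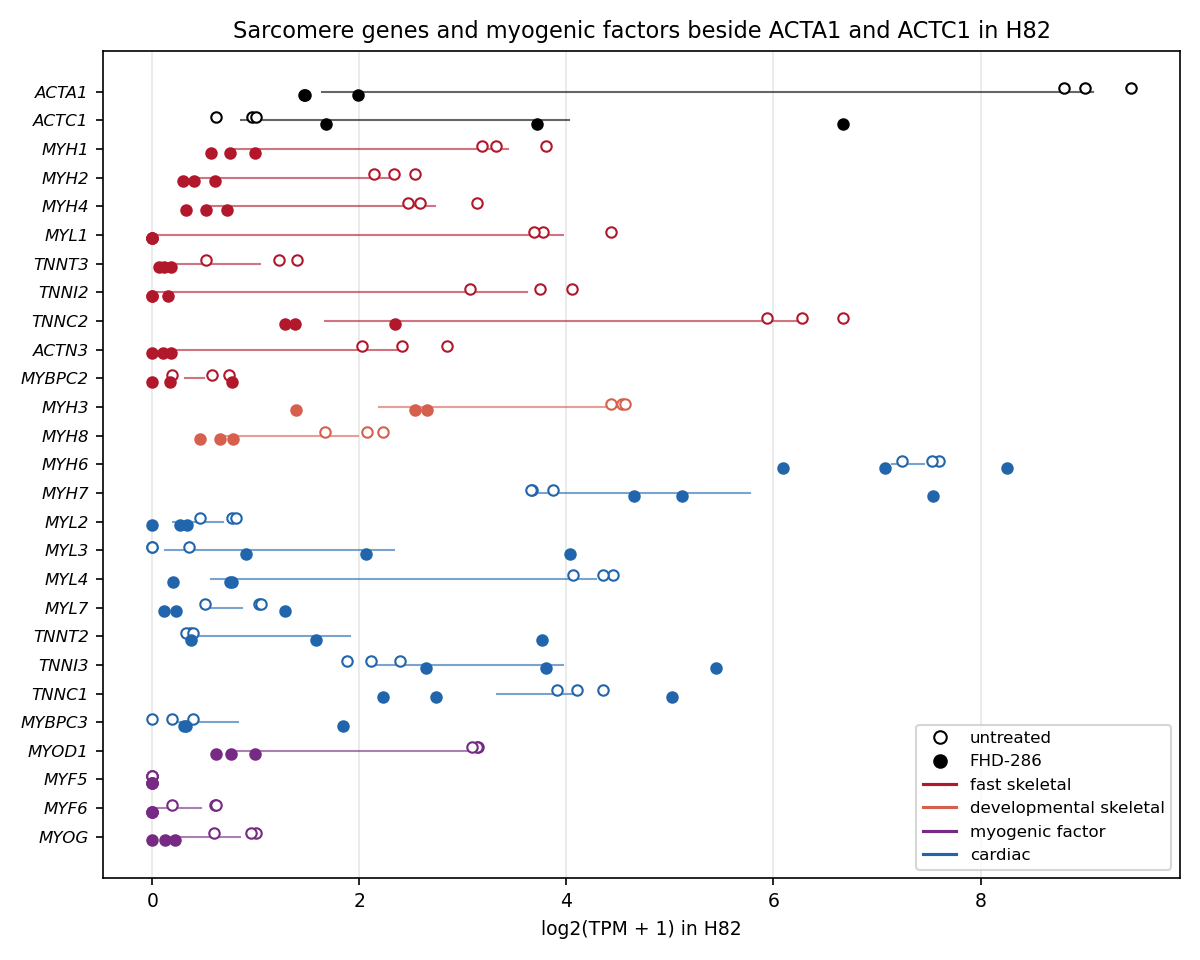
Levels of striated muscle genes in H82 are shown as log2(TPM + 1), with open circles for untreated and filled circles for treated libraries, and lines that join the group means. The fast skeletal genes and *MYOD1* lie to the left with treatment, as *ACTA1* does, except *MYBPC2*, whose groups overlap, while *ACTC1*, *MYH7*, *MYL3* and *TNNI3* lie to the right.

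In H146, 20 of the 54 striated muscle genes were tested, and 6 fell and 4 rose (15.5% and 32.5% over all genes), with a median of -0.14 against 0.25. *MB*, the oxygen carrier myoglobin, fell the most, from 26.7 to 33.2 TPM in untreated H146 to at most 0.297 TPM with treatment (log2 change -4.82, limma adjusted *p* = 1.83e-06). *CKMT2*, the creatine kinase of sarcomeric mitochondria, rose by 1.03 (limma adjusted *p* = 0.00801), from 0.423 to 0.771 TPM to 1.32 to 3.15 TPM. *MB* passed the filter only through the untreated group and *CKMT2* only through the treated group. Skeletal muscle markers summed to 5.57 to 6.67 TPM in untreated and 8.98 to 10.5 TPM in treated H146, with *MYOG*, *MYH1* and *MYH2* listed at 0 in all untreated libraries.

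Most tested genes of the smooth muscle and contractile list were lower in H146, but the summed smooth muscle markers were not. Of 25 listed smooth muscle and contractile genes, 20 were tested in H146, and 13 fell and none rose (15.5% and 32.5% over all genes), and their median was -0.71 where that of all genes was 0.25. *ITGA7*, an integrin of muscle cells that binds laminin, fell the most, from 25.2 to 26.9 TPM to 4.98 to 7.27 TPM (log2 change -1.88, limma adjusted *p* = 6.11e-05). The smooth muscle marker *TAGLN* was not among the genes that fell, at 5.86 to 6.39 TPM without and 4.80 to 8.54 TPM with treatment. Nor was the marker *CNN1*, at 0.669 to 1.3 TPM without and 1.41 to 4.2 TPM with treatment (log2 change 0.82, limma adjusted *p* = 0.0627). *MYH11* and *MYL9* were below the filter there. In H82, 19 of the 25 were tested, and 6 fell and 2 rose (45.5% and 13.1% over all genes). This balance depended on the scaling and on 1 library, with 3 lower and 7 higher by the median of ratios and 8 lower and 6 higher without treated replicate 1. *TAGLN* fell the most, by 2.12 on the log2 scale (11.3 to 12.4 TPM against 0.673 to 3.84 TPM, limma adjusted *p* = 0.00286). *MYL6*, a light chain of nonmuscle and smooth muscle myosin, rose by 0.96 (limma adjusted *p* = 0.0119). Summed smooth muscle markers went from 44.8 to 50.5 TPM to 13.3 to 22.5 TPM in H82, and were 7.28 to 8.46 TPM without and 7.38 to 14.0 TPM with treatment in H146.

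SRF and the coactivators that respond to the actin monomer pool were seen in both lines. *SRF* was at 61.7, 72.9 and 76.6 TPM, from lowest to highest, in untreated H82 and at 31.7, 71.6 and 71.7 TPM with treatment (log2 change -0.35, limma adjusted *p* = 0.376). In H146 *SRF* rose from 60.9 to 70.1 TPM to 112 to 167 TPM (log2 change 1.03, limma adjusted *p* = 0.0015). Of the coactivators, *MRTFB* (listed as *MKL2*) fell in H82 by 1.30 on the log2 scale (limma adjusted *p* = 0.00186), from 7.45 to 9.29 TPM to 2.15 to 3.36 TPM, a call lost under quantile normalization (-0.42, adjusted *p* = 0.174). *MRTFA* (listed as *MKL1*) fell by 0.41 there (limma adjusted *p* = 0.0424), a call lost without treated replicate 2 (-0.40, adjusted *p* = 0.0969) and turned to 0.06 by the median of ratios (adjusted *p* = 0.753). In H146 *MKL2* had a log2 change of 0.50 (limma adjusted *p* = 0.0505) and *MKL1* of -0.06 (limma adjusted *p* = 0.704), which became -0.37 by the median of ratios (adjusted *p* = 0.018). *MYOCD*, the coactivator of heart and smooth muscle, was at or near 0 in all libraries. With the MEF2 factors, which act with MYOD1 in muscle, 3 of 5 genes tested fell in H82 and none rose (45.5% and 13.1% over all genes), with a median of -0.41, not far from the background of all genes. In H146, 3 of 6 rose and none fell (32.5% and 15.5% over all genes), with a median of 0.45 against 0.25, and the largest rise was that of *MEF2C* (1.46, limma adjusted *p* = 0.000527).

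Genes that bind monomers and remodel filaments also moved. Of 29 tested genes of actin turnover in H82, 5 fell and 12 rose (45.5% and 13.1% over all genes), with a median of 0.18 against -0.56. Without treated replicate 2, 5 fell and 7 rose. *GSN*, gelsolin, which severs filaments, rose the most (1.84, limma adjusted *p* = 0.000734), and *CORO2B*, a neuronal coronin, fell the most (-4.58, limma adjusted *p* = 5.75e-05). *CORO2B* went from 46.3 to 50.4 TPM to 0.729 to 1.55 TPM and passed the filter through the untreated group. *PFN1* and *TMSB4X*, the monomer binders profilin and thymosin beta 4, were chosen after their values were seen. *PFN1* rose from a mean of 317 to 957 TPM (log2 change 1.51, limma adjusted *p* = 0.00666) and *TMSB4X* from 351 to 1136 TPM (1.69, limma adjusted *p* = 0.000448) in H82. In H146, 7 of 30 fell and 4 rose (15.5% and 32.5% over all genes), which became 12 and 3 by the median of ratios and 10 and 6 under quantile normalization. *TMOD1*, tropomodulin, which caps the slow end of filaments, fell the most (-4.12, limma adjusted *p* = 2.9e-06), from 40.2 to 58.7 TPM to 1.75 to 2.21 TPM, and *CORO2A* rose the most (1.05, limma adjusted *p* = 0.00408).

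Among genes of filament nucleation, 14 of 35 fell and 9 rose in H82 (45.5% and 13.1% over all genes), with a median of -0.52 close to that of all genes. The balance moved with the setting, to 11 and 4 without treated replicate 2, 15 and 14 without treated replicate 1, 7 and 13 by the median of ratios, and 8 and 11 under quantile normalization. *ARPC1A*, a subunit of the Arp2/3 complex, rose the most (1.36, limma adjusted *p* = 0.00604), and the formin *FMN2* fell the most (-2.54, limma adjusted *p* = 0.000317). In H146, 6 of 35 fell and 9 rose (15.5% and 32.5% over all genes), with the formin *DIAPH2* at -1.41 (limma adjusted *p* = 0.000431) and the formin *FMNL2* at 1.03 (limma adjusted *p* = 0.00186). There 8 fell and 4 rose by the median of ratios, 7 and 4 under quantile normalization and 3 and 4 with the replicate block.

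New actin is folded by the prefoldin and CCT chaperones and then trimmed and modified by dedicated enzymes. Of the 18 listed genes, all tested in both lines, 1 fell and 6 rose in H82 (45.5% and 13.1% over all genes), with a median of 0.47 against -0.56. Without treated replicate 1, 14 rose and 1 fell. *PFDN6*, a prefoldin subunit, rose the most (1.13, limma adjusted *p* = 0.00298), and *PFDN4* was the one that fell (-0.38, limma adjusted *p* = 0.0417). The *PFDN4* call was lost without treated replicate 2 (-0.30, limma adjusted *p* = 0.141), and by the median of ratios the value turned to 0.11 (adjusted *p* = 0.476). None of the 18 was lower with eBayes without trend, a mean TPM above 2, no filter or the replicate block either. Quantile normalization went the other way, with 2 lower and 6 higher in H82, and *PFDN4* was still called (-0.43, limma adjusted *p* = 0.0496). In H146 none fell and 2 rose (15.5% and 32.5% over all genes), namely *PDCL3*, a helper of CCT (0.77, limma adjusted *p* = 0.0341), and *NAA80* (listed as *NAT6*). By the median of ratios 12 rose in H82, while in H146 4 fell and none rose, so that both H146 rises lost their call (0.46 for *PDCL3*, limma adjusted *p* = 0.145, and 0.34 for *NAT6*, adjusted *p* = 0.159). Quantile normalization gave 1 lower and 3 higher in H146, and neither *PDCL3* nor *NAT6* was called. *NAA80*, which acetylates the start of actin, went from 6.09 to 7.28 TPM to 8.57 to 13.7 TPM in H146 (log2 change 0.62, limma adjusted *p* = 0.0254). *SETD3*, which methylates actin on a histidine, rose in H82 from 49.5 to 53.4 TPM to 66.5 to 78.9 TPM (0.52, limma adjusted *p* = 0.0125) and was at 0.16 in H146 (adjusted *p* = 0.322). *ACTMAP* (listed as *C19orf54*), the protease that matures the start of actin, did not reach the threshold in either line, at 28.7 to 35.1 and 23.9 to 38.1 TPM in H82 and 56.5 to 64.1 and 47.0 to 55.7 TPM in H146. In H146 it was past the threshold under quantile normalization (-0.40, limma adjusted *p* = 0.0228) and by the median of ratios (-0.58, adjusted *p* = 0.00487).

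No other isoform was among the genes most like *ACTA1*. By the root mean square difference of centred log2(TPM + 1) over the 13 libraries, the genes most like it among 24374 were *TRBV27* (0.482), *RBP3* (0.572), *TRBVB* (0.689), *CTD-2050N2.1* (0.756) and *AC087393.1* (0.774). Like *ACTA1*, they were high in untreated H82 alone. *TRBV27*, a segment of the T cell receptor beta locus, was at 202 to 213 TPM there and at most 0.989 TPM in treated H82. The other actin genes stood at places 19999 to 22368 in this order. Likeness of this kind is dominated by the untreated H82 libraries, which all these genes share.

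None of the genes beside *ACTA1* on chromosome 1 fell by a like amount. *NUP133*, a nuclear pore gene whose annotated end lies 6.2 kb from *ACTA1*, was at -0.29 in H82 (limma adjusted *p* = 0.248), and *ABCB10*, a mitochondrial transporter gene, at -0.10 (limma adjusted *p* = 0.724). *CCSAP*, a centriole protein gene on the other side, fell by 0.62 in H82 (limma adjusted *p* = 0.0498) and rose by 0.96 in H146 (limma adjusted *p* = 0.00221). In H82 its change was 0.07 below the median of all genes. The small RNA genes *RN7SKP276*, *RNU6-180P* and *RNU4-21P* were at a mean of at most 3.54 TPM in every group.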

How the data were processed

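RNA-seq of 13 libraries was analysed. The submitters' processing notes name Trim Galore 0.4.4, STAR and DESeq2 with hg38, and the study's methods add GENCODE release 28. The authors deposited 1 table of TPM values per line, each column summing to 1000000. How gene length was taken, and whether counting used strand, are not given in the sources used here. Genes that reached 1 TPM in 3 or more libraries of a line were fitted on log2(TPM + 1) with limma 3.58.1 in R 4.3.3 (lmFit, eBayes with trend, two-sided, Benjamini-Hochberg over all genes, threshold 0.05), since the authors' count test cannot be run on TPM. The difference between lines was the interaction over 13 libraries. Genes below the filter had an exact permutation test. Every column was mapped to a sample. The members, gene lists and tests were chosen with earlier results of these data known. Named genes were the members, the largest rise and fall per list and line, fixed regulators, the 5 genes most like *ACTA1* and its neighbours. Alternatives were a pseudocount of 0.1, other filters, scalings and variance models, a replicate block and each library left out. On simulated data with 200 changed genes, the H82 design recovered 16.8% of changes of 1 and 74.7% of changes of 2 on the log2 scale, and the H146 design 53.8% and 89.9%. Far more genes were called in the real data, which alters the adjustment of *p*, so these shares are not the power of the fits above. The spread between libraries sets the precision, as depth is unknown. Coordinates came from GENCODE release 44. The reads, and the other assays of the study, were not used here, and 1 gene is not reported here.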

Additional observations from a re-analysis of the deposited data

Results flagged for a closer look

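Of 5 isoforms tested, 3 changed differently in the 2 lines, a share near the 59.3% of all genes. The test was that of the difference itself (limma, interaction of line and treatment over 13 libraries). The change in H146 minus that in H82 was -3.69 for *ACTG2* (adjusted *p* = 1.82e-07), where every treated H146 library was lower than every untreated one. It was -1.31 for *ACTA2* (adjusted *p* = 0.000371), with the same separation in H146. In H82, *ACTG2* was at most 0.364 TPM and *ACTA2* at most 0.129 TPM in any library. A fall like that in H146 could therefore not be seen in H82, and these differences also carry which line held the RNA. *ACTC1* was at most 0.254 TPM in any H146 library. The difference was -3.04 for *ACTC1* (adjusted *p* = 0.0379), where all 3 treated H82 libraries were higher than the untreated ones. This call ended when any single H146 or untreated H82 library was left out (adjusted *p* of 0.0507 to 0.0727). No group of 4 libraries held a member with a value far from the others by Dixon's criterion, and groups of 3 were not tested.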

How the results depend on the processing

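All values are log2 changes unless named otherwise. *ACTA1* in H82 was -7.03 by the median of ratios and -7.94 with a pseudocount of 0.1. Its difference between lines was 7.64 by the median of ratios, 9.20 with that pseudocount and 7.66 under quantile normalization. *ACTG2* and *ACTA2* in H146, and their differences between lines, kept direction and call under every alternative that gave a value. With no filter on low values, the calls of *ACTC1* in H82 (3.16), its difference between lines (-3.04) and *ACTB* in H146 (-0.48) were lost, and the *ACTC1* difference was also lost with a pseudocount of 0.1 (-3.20). Under quantile normalization *ACTB* and *ACTG1* in H82 reversed to -0.11 and -0.03, and the call of *ACTB* in H146 was lost (-0.39). By the median of ratios *ACTG1* in H82 was called (0.94), as were the differences between lines of *ACTB* (-1.65) and *ACTG1* (-1.48). Without trend, *ACTG1* in H82 (0.45) and the differences of *ACTB* (-0.83) and *ACTG1* (-0.66) were called. The cause of these shifts was not tested.

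Leaving out 1 library at a time, *ACTC1* in H82 ran from 1.84 to 4.33 and its difference between lines from -4.21 to -1.71. *ACTB* ran from 0.13 to 0.72 in H82 and, in H146, from -0.50 to -0.46, with -1.21 to -0.62 between lines. *ACTG1* ran from 0.38 to 0.48 in H82 and from -0.78 to -0.58 between lines. Its difference was called without H82 treated replicate 1 (-0.64, limma adjusted *p* = 0.0418) or H146 treated replicate 2 (-0.78, adjusted *p* = 0.0279), and that of *ACTB* without H82 treated replicate 1 (-1.21, adjusted *p* = 5.04e-05). Over its alternatives the adjusted *p* ran from 0.0034 to 0.775 for *ACTG1* and from 4.86e-05 to 0.616 for *ACTB*. *ACTA1* in H146 ran from 0.54 to 0.96, and without treated replicate 2 it was called (0.86, adjusted *p* = 0.048) when genes were filtered on all libraries, an alternative added after the data were seen. Where a left-out library took a gene below the filter there was no value. Over all genes, lower calls in H82 ran from 4291 to 9957, higher calls in H82 from 1676 to 3820, and lower calls in H146 from 1812 to 3741. With 1 untreated H82 library left out, fewer genes passed the filter (16364 to 16488). Under quantile normalization, 5547 genes of H82 were lower and 5067 higher, and by the median of ratios 4793 were higher in H82, with 4917 lower and 4167 higher in H146.

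No pairing by the replicate numbers shared by the groups was seen. The deviations of each gene from its group mean were compared between untreated and treated libraries. For same-numbered libraries these deviations correlated at -0.0378 to 0.027 in H82 and -0.111 to 0.0108 in H146. With so few libraries per group, such values cannot exclude a pairing. With the number as a block, *ACTA1* in H146 was called (0.96, limma adjusted *p* = 0.0439) and the call of *ACTB* in H146 was lost (-0.50, adjusted *p* = 0.0828). Treated replicate 4 of H146 has no partner and adds nothing to a blocked log2 change. The block changed no other call of an isoform.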

Other observations

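Genes that hold an actin-like part outside the 6 conventional actins were also measured. Some *POTE* genes carry an actin domain from a copied *ACTB*. All 14 genes with a *POTE* symbol, with or without that domain, summed to 41.4 to 49.6 TPM in untreated H82 and 2.71 to 5.17 TPM in treated H82. In H146 the sums were 12.1 to 16.7 TPM and 3.96 to 5.57 TPM. *POTEF*, the most abundant of the listed ones in H82, fell in H82 by 3.55 (adjusted *p* = 0.000173, limma) and in H146 by 1.49 (adjusted *p* = 0.000377). Other *POTE* genes share 50-base windows with *ACTB* and *ACTA1*, and how the counting divided such reads is not given in the sources used here. Of 6 tested actin-related genes outside the chromatin remodelers, 2 fell and 2 rose in H82 (45.5% and 13.1% over all genes), and 3 fell and 1 rose in H146 (15.5% and 32.5%). By the median of ratios 4 rose in H82, and 4 fell and none rose in H146. *ACTL10*, an actin-like gene of testis, rose in H82 (1.77, limma adjusted *p* = 0.000804), from 1.21 to 1.89 TPM to 5.83 to 8.93 TPM. *ACTL8* rose in H146 (2.09, limma adjusted *p* = 0.0419), with treated libraries from 0.571 to 13.5 TPM, a call lost by the median of ratios (1.95, adjusted *p* = 0.0501). It was at most 0.281 TPM in untreated H146 and passed the filter only through the treated group.

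*ACTB* is often used to scale other genes, and 13 further reference genes were measured beside it. In H82 none fell and 3 rose (45.5% and 13.1% over all genes), and their median was 0.25 against -0.56. By the median of ratios 8 rose, without treated replicate 1 10 rose, and under quantile normalization 2 fell and 3 rose. The largest rise was that of *B2M*, the light chain of MHC class I, from 16.6 to 17.6 TPM to 65.3 to 76.5 TPM (1.98, limma adjusted *p* = 0.000128). In H146, 3 fell and 1 rose (15.5% and 32.5% over all genes), with *PGK1*, a glycolytic enzyme, the one that rose (0.85, limma adjusted *p* = 0.00645). By the median of ratios 8 fell and 1 rose there. *GAPDH*, chosen after its values were seen, was at 0.81 in H82 (adjusted *p* = 0.193, limma), past the threshold without treated replicate 1 (1.38, adjusted *p* = 0.00156), and at -0.15 in H146 (adjusted *p* = 0.414).

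Markers of other cell types were counted in the same libraries. Summed fibroblast markers were 1.7 to 2.5 TPM in untreated and 8.0 to 35.5 TPM in treated H82, and 8.22 to 11.5 TPM and 18.7 to 37.3 TPM in H146. Summed epithelial markers were 1.57 to 3.61 TPM and 9.17 to 114 TPM in H82, and 2234 to 2404 TPM and 575 to 647 TPM in H146. Endothelial markers summed to at most 2.65 TPM and leukocyte markers to at most 18.0 TPM in any library.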
